A study of Mus musculus with 24 samples.

Results

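The metabolic and xenobiotic receptors described here are 10 mouse genes, chosen by symbol and not by any measured value: Nr1i2, Nr1i3, Rxra, Nr3c1, Thra, Thrb, Pparg, Ppard, Esrra and Ahr. They and the gene lists below were chosen with earlier results of these data known. All 10 were found among the 56205 genes of the count table, and all 10 were among the 17913 genes tested. Their mRNA was measured by poly(A) RNA-Seq in whole livers of C57BL/6J mice of both sexes, aged 8 to 10 weeks when the diet began. A total of 12 libraries came from mice fed for 20 weeks a high-fat diet rich in palm oil, fructose and cholesterol, and 12 came from mice fed its control diet for the same 20 weeks. The study used this diet as a mouse model of fatty liver disease with fibrosis. The series gives 6 mice per diet and sex, no label gives the sex of a single library, and the p-values measure the spread between these libraries.

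Nuclear receptors are transcription factors that are switched by small molecules which enter the cell. PXR (Nr1i2) and CAR (Nr1i3) sense drugs, steroids and bile acids and induce detoxifying enzymes in hepatocytes, and many receptors of this kind bind DNA as a pair with the shared partner RXR-alpha (Rxra). The glucocorticoid receptor (Nr3c1) and the thyroid hormone receptors (Thra, Thrb) carry hormone signals to liver metabolism, the PPARs respond to fatty acids, and ERR-alpha (Esrra) drives mitochondrial genes without a known natural ligand. The aryl hydrocarbon receptor (Ahr) belongs to another protein family, the bHLH-PAS factors, and is grouped with the nuclear receptors here for its part in xenobiotic sensing.

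Depth ranged from 14468418 to 22112552 counts on genes per library. A level below is in CPM, a gene's counts scaled to the same total in every library with totals adjusted by edgeR's TMM method, and a fold change is the log2 ratio of the high-fat diet over the control diet. A gene was called when its adjusted p was at most 0.01 and its absolute log2 fold change over 0.5 (edgeR's quasi-likelihood test, Benjamini-Hochberg over all genes tested), and "rose" and "fell" are used only for such genes. By this rule 18.2% of all genes tested were called, 13.2% higher and 4.99% lower. High-fat diet replicate 9 and control replicate 10 stood apart, with the lowest median correlation with the libraries of their own diet (0.962 and 0.955) and the most extreme TMM factors (1.34 and 0.679). Xist, the RNA of the inactive X chromosome, split the libraries of each diet into 6 with 2664 to 6285 counts (replicates 1 to 6) and 6 with 0 to 3 counts (replicates 7 to 12), a split in which only the second set had counts of the Y-linked Ddx3y. These sets come from the data and not from labels, and their sizes match the 6 mice per diet and sex. High Xist with 0 counts of Ddx3y marks female livers, and 448 to 1016 counts of Ddx3y with little Xist marks male livers. A difference between the sets is therefore one between the sexes as read from these genes. Hepatocyte markers were present in every library, with a summed level of 42090 to 98630 CPM on the high-fat diet and 93930 to 141300 CPM on the control diet over 10 genes, of which 7 fell (3 with library totals alone, and 2 within the libraries with Xist above 1000 counts). Of 7 resident macrophage markers 3 rose, of 7 quiescent stellate cell markers 2, of 7 sinusoidal endothelial markers 1 and of 6 cholangiocyte markers 5, with the highest summed cholangiocyte level in high-fat diet replicate 9 (209 CPM, beside at most 49.2 CPM in the other libraries of the diet). In that order, 1, 0, 0 and 0 were called higher within the libraries with Xist above 1000 counts. Below 1000 counts it was 3, 3, 0 and 5. Of the same lists edgeR, DESeq2 and limma-voom each called 0 genes lower. At an unadjusted p under 0.05 in edgeR 2 sinusoidal endothelial markers were lower. The resident macrophage markers Timd4 and Marco each had 7 of 12 high-fat diet libraries below every control, and Marco had 2 above every control. Of 6 T cell, 5 B cell and 2 tested adipocyte markers edgeR, DESeq2 and limma-voom each called 0 over all libraries, with 2 T cell markers and 0 of the others higher at an unadjusted p under 0.05 in edgeR. Within the libraries with Xist below 1000 counts edgeR called 4 T cell markers higher, and 1 B cell marker higher and 1 lower. Above 1000 counts it called 0 of these T cell, B cell and adipocyte markers.

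Of the 10 receptors, Pparg rose and no other passed both thresholds. The count was 1 called higher and 0 called lower by edgeR, DESeq2 and limma-voom alike, against 3 receptors higher and 5 lower at an unadjusted p under 0.05 in edgeR. Nr3c1, Thra and Esrra met the adjusted p but differed by less than the fold threshold, so that 4 of the 10 had an adjusted p of at most 0.01 whatever the fold, beside 25.8% of all genes. The log2 fold changes of the other 9 ran from -0.58 for Nr1i3 to 0.40 for Thra, 7 of them below 0. Pparg was also the only receptor called without the pair of libraries that stood apart. All these fits had diet as the only term. EdgeR also called Nr1i3 lower with the Xist set as a covariate, 1 surrogate variable or the replicate number as a block (adjusted p = 0.000275, 0.00106 and 0.00139). With library totals in place of TMM the median log2 fold change of all genes moved from -0.03 to 0.26, and Thra and Ppard were then called higher as well. Relative to the median of all genes, the difference of each receptor changed by at most 0.07 between these scalings.

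**Figure D1:**
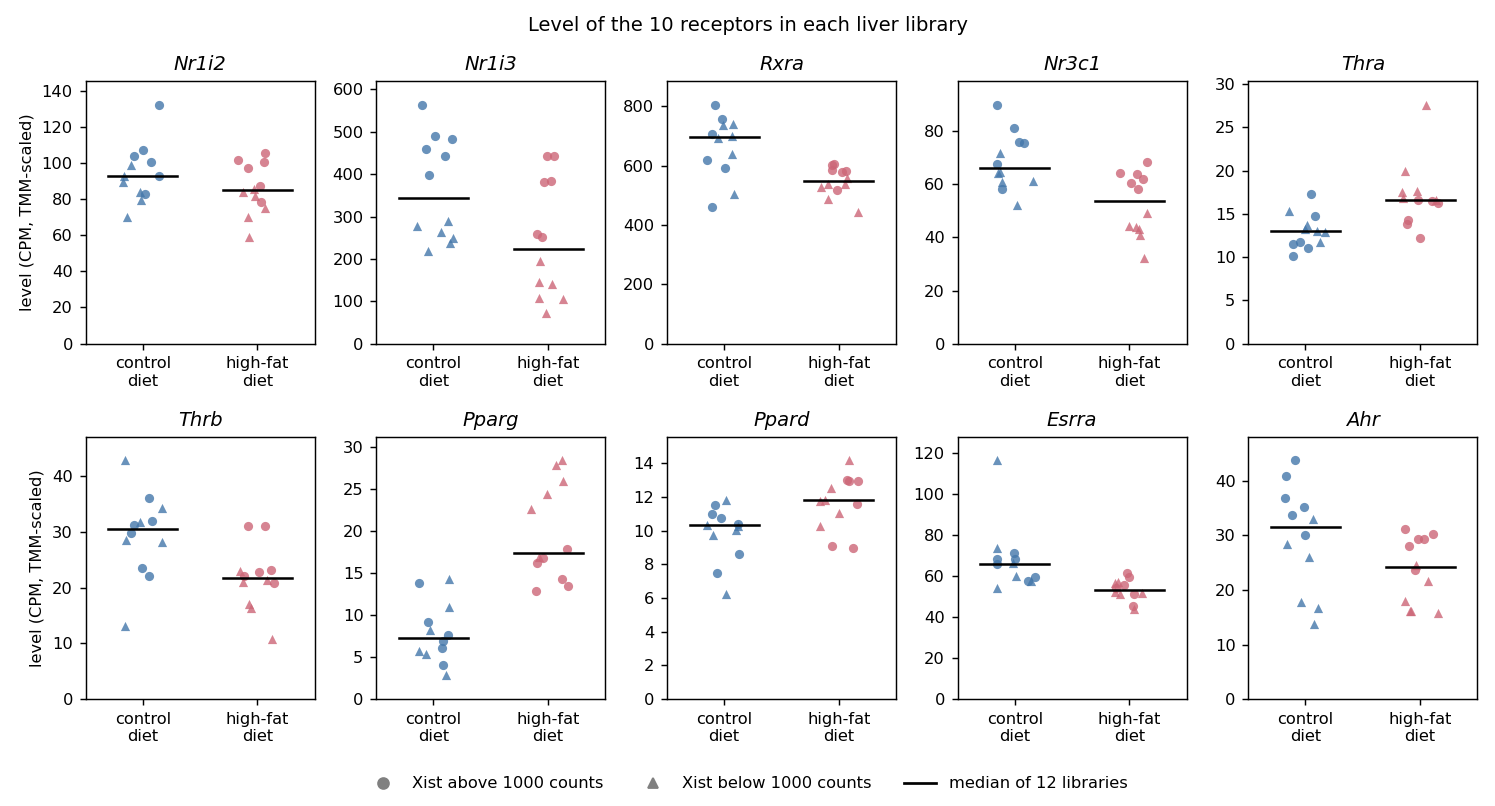
Level of each receptor (CPM, TMM-scaled, axes from 0) in each of the 12 control and 12 high-fat diet libraries, with a bar at the median of each diet; circles are libraries with Xist above 1000 counts and triangles those below. For Pparg 10 of the 12 high-fat diet libraries sit above every control, while the other receptors overlap more, and for Nr1i3 the triangles lie below the circles on both diets.

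**Figure D2:**
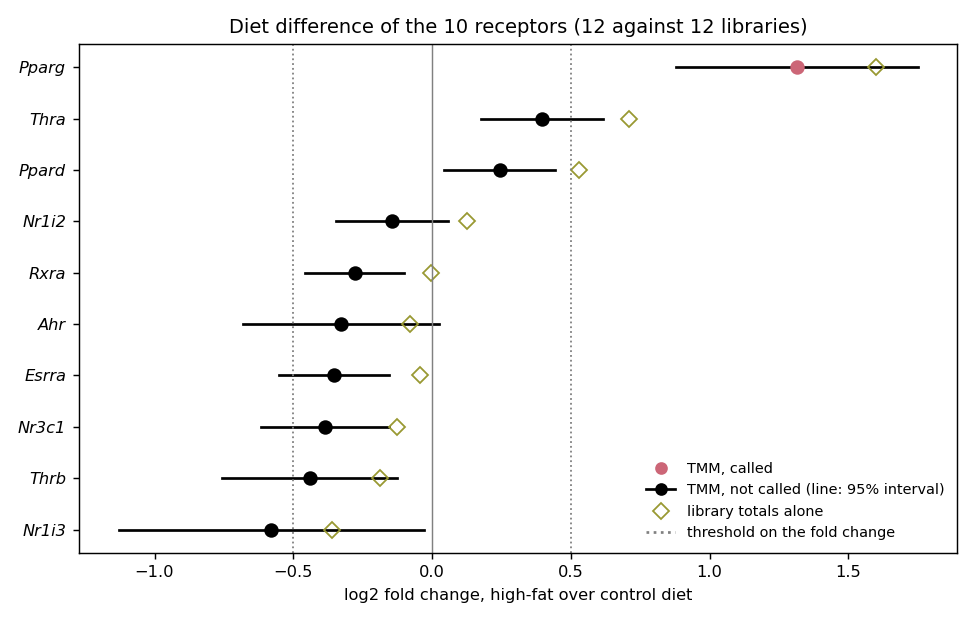
Log2 fold change of each receptor, high-fat over control diet, with its 95% interval after TMM scaling (filled circles) and its value with library totals alone (open diamonds); dotted lines mark the threshold on the fold change. The interval of Pparg (0.88 to 1.75) lies wholly past the threshold, and each diamond lies to the right of its circle.

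Pparg encodes PPAR-gamma, the receptor that directs fat storage in adipocytes and that is scarce in healthy liver. In the control livers its level was 2.89 CPM at the lowest, 7.30 CPM at the median and 14.3 CPM at the highest, and on the high-fat diet it was 12.9, 17.4 and 28.4 CPM. Each of the 12 high-fat diet libraries exceeded the control median, and 10 of them lay above every control library. The log2 fold change was 1.31 ± 0.21 (SE), an increase of 2.49-fold (95% interval 1.84 to 3.36), with an adjusted p of 3.18e-05. Control replicates 11 and 6, at 14.3 and 13.8 CPM, were the controls that reached the range of the high-fat diet. The same control libraries had the highest summed levels of the 8 activated stellate cell markers among the controls, 235 and 130 CPM. They also had the highest of the recruited and lipid-associated macrophage markers, 55.05 and 77.3 CPM. Control replicate 11 had the highest control sums of cholangiocyte (17.05 CPM) and adipocyte markers (58.1 CPM) as well. In whole liver, fewer cells of a type and less RNA per cell cannot be told apart. Adipocyte markers were scarce: Lep had 0 counts in every library, Adipoq, Plin1 and Retn had at most 5, 6 and 7 counts, and the summed level of Cfd and Cidea was 0.422 to 56.7 CPM on the high-fat diet and 0 to 58.1 CPM on the control diet. The 7 markers of recruited and lipid-associated macrophages, cells that can express Pparg, all rose, from a summed level of 20.4 to 77.3 CPM in control livers to 130 to 340 CPM, and 6 of the 8 activated stellate cell markers rose. The part of these cells in the level of Pparg was not tested.

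The count of Pparg (ENSMUSG00000000440, chr6:115360951-115490399, plus strand, GRCm38) sums transcripts from several start sites, which these counts cannot separate. RefSeq (GRCm38.p6) gives 3 promoter windows for the gene, each of 250 bases before and 50 after a start. They are shown because Pparg is the receptor that rose. The capitals mark AGGTCA on either strand, the half-site that many nuclear receptors bind:
Pparg window 1, chr6:115360894-115361193, plus strand: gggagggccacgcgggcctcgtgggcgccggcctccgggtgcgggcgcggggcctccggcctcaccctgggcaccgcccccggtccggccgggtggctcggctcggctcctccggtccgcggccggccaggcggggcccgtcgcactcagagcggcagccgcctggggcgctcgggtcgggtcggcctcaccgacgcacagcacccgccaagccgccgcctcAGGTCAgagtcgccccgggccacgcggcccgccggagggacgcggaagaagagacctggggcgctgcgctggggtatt
Pparg window 2, chr6:115362099-115362398, plus strand: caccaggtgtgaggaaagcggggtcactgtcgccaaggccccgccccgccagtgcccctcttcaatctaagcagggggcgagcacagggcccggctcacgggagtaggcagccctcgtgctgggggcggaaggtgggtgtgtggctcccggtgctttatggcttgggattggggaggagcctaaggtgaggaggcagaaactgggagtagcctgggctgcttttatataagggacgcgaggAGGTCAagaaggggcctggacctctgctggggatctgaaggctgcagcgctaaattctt
Pparg window 3, chr6:115421816-115422115, plus strand: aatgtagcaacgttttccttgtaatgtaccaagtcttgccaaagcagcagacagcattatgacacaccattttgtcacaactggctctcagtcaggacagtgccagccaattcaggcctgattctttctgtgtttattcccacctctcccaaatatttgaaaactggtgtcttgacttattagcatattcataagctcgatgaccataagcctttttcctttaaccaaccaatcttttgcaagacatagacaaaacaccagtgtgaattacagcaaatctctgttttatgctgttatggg
The windows differ in base composition, with 80.3%, 62.7% and 40.3% G or C, beside a median of 52.7% over all windows. The half-site begins 28 bases before the start in window 1 and 9 bases before it in window 2, and these letters are not in window 3. Across the receptors, 11 windows of 7 genes were at hand, with none for Nr3c1, Thra or Ahr, and 4 of the 11 held the half-site, beside 16.3% of 32851 windows of all genes. The other matches were in a window each of Rxra (87 and 48 bases before the start, the first on the opposite strand) and Thrb (184 bases before it). The xenobiotic response element core bound by the aryl hydrocarbon receptor, GCGTG on either strand, was in 4 of the 11, beside 32.4% of all. The direct repeats of the half-site spaced by 1 or 4 bases, and the extended half-site TCAAGGTCA of ERR-alpha, which overlaps AGGTCA, were in 0 of the 11, beside at most 0.423% of all windows. A match in these letters is a description and not a binding site.

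Genes known as PPAR-gamma targets in fat were measured beside the receptor. Of 18 tested, 6 rose and 2 fell, with a median log2 fold change of 0.65 beside -0.03 over all genes. Within the libraries with Xist above 1000 counts 3 were called higher and 0 lower, and below 1000 counts 7 and 3. Lpl, the lipase that releases fatty acids from circulating triglyceride, rose from a control range of 6.33 to 32.5 CPM (median 10.3) to 71.8 to 221 CPM (median 124), and no library of one diet reached the range of the other (log2 fold change 3.39 ± 0.28, adjusted p = 2.07e-08). Cidec, a lipid droplet protein, rose by a log2 fold change of 2.93 ± 0.56 (adjusted p = 0.000205), with overlap between the diets: 2.65 to 59.8 CPM in control livers and 13.9 to 237 CPM on the high-fat diet. Aqp7, a glycerol channel, rose from a level at or near 0 (at most 1.08 CPM in a control library) to 0.0498 to 3.61 CPM, with 6 of 12 high-fat diet libraries above every control and an adjusted p of 0.00173. The others that rose were Fabp4, Plin4 and Cd36, and the call of Cd36 was lost in 15 of the 24 fits that left out 1 library. G0s2, an inhibitor of fat breakdown, fell by 1.003 on the log2 scale (adjusted p = 0.000186), and Acsl1, which activates fatty acids, fell by 0.68 (adjusted p = 0.000147, not called with library totals). Several of these genes are also expressed by macrophages or endothelium.

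Ppard encodes PPAR-delta, a receptor present in most tissues that favours fatty acid use. Its level was 6.21, 10.3 and 11.8 CPM at the lowest, median and highest control library and 8.98, 11.8 and 14.2 CPM on the high-fat diet. High-fat diet replicate 9 was the highest and control replicate 10 the lowest, and 5 of 12 high-fat diet libraries lay above every control. Its log2 fold change of 0.24 ± 0.10 did not pass (adjusted p = 0.0470), and without these 2 libraries it was 0.17 (adjusted p = 0.110). Of 11 PPAR-delta targets 1 rose: Ucp2, an uncoupling protein of mitochondria, from a median of 55.0 to 147 CPM (log2 fold change 1.38 ± 0.22, adjusted p = 2.35e-05). EdgeR called 0 lower, as did DESeq2 and limma-voom, with 4 lower at an unadjusted p under 0.05, and the median of the list was -0.26. Angptl4, an inhibitor of lipases and a classical target, had a log2 fold change of -0.46 ± 0.15 (adjusted p = 0.0134). Ppara, the third PPAR and the main driver of hepatic fatty acid oxidation, had one of -0.50 ± 0.21 (adjusted p = 0.0603).

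Among the xenobiotic sensors, Nr1i2 (PXR; ENSMUSG00000022809, chr16:38248323-38294824, minus strand) differed least between the diets. Its level was 70.2, 93.0 and 132 CPM at the lowest, median and highest control library and 59.2, 84.9 and 106 CPM on the high-fat diet, and the ranges overlapped over most of their length. Its log2 fold change was -0.14 ± 0.10, with a 95% interval of -0.35 to 0.06 (adjusted p = 0.251), and it was 0.13 with library totals. Of 20 PXR targets 4 rose and edgeR called 0 lower. DESeq2 called 1 lower and limma-voom 0, and 2 were lower at an unadjusted p under 0.05. With the Xist set as a covariate, or the replicate block, edgeR called 2 lower. Within the libraries with Xist above 1000 counts it called 4 higher and 4 lower, and below 1000 counts 6 and 2. Cyp3a11, the main drug-oxidizing cytochrome P450 of this subfamily in mouse liver, rose from 264 to 1288 CPM (median 433) to 1511 to 2812 CPM (median 1857), with every high-fat diet library above every control (log2 fold change 1.76 ± 0.25, adjusted p = 7.71e-06). Within the libraries with Xist above 1000 counts Cyp3a11 was not called (1.27 ± 0.32, adjusted p = 0.0160). Below 1000 counts it was called higher (2.44 ± 0.20, adjusted p = 1.65e-06). Gsta1, a glutathione transferase, rose from a median of 1.24 to 48.0 CPM, with 11 of 12 libraries above every control (log2 fold change 4.31 ± 0.57, adjusted p = 3.73e-06). Cyp2c55 rose by a log2 fold change of 1.48 ± 0.21 and Abcc3, an export pump for conjugates, by 0.83 ± 0.22. The median of the list was -0.18, since 11 of the 20 were below 0. Reads of the close copies within the Cyp3a, Cyp2c, Gsta and Gstm families may be shared between them by the counting, so the values of single copies are uncertain.

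Nr1i3 encodes CAR, which resides in the cytoplasm of hepatocytes until a drug or stress signal releases it to the nucleus. It was at 218, 343 and 564 CPM at the lowest, median and highest control library and at 72.9, 223 and 443 CPM on the high-fat diet. Of the high-fat diet libraries 6 of 12 lay below every control, and these were the 6 with little Xist. The log2 fold change was -0.58 ± 0.27 (95% interval -1.13 to -0.03), past the fold threshold but not the adjusted p (0.0862). With library totals it was -0.36 (adjusted p = 0.268). With the Xist set as a covariate it was -0.70 (adjusted p = 0.000275), and Nr1i3 was then called lower. Within the libraries with Xist below 1000 counts the level was 218 to 288 CPM in the controls and 72.9 to 195 CPM on the high-fat diet with no overlap, a log2 fold change of -0.99 ± 0.19 (adjusted p = 0.000885). Within those above 1000 counts it was 398 to 564 CPM and 251 to 443 CPM, with 4 of 6 high-fat diet libraries below every control, and differed by -0.39 ± 0.15 on the log2 scale (adjusted p = 0.0958). The difference between these changes was -0.61 ± 0.25 (adjusted p = 0.129), so it was not shown that the sets differed. The exons of Nr1i3 (ENSMUSG00000005677, chr1:171213970-171220701, plus strand) share 3304 of 4414 bases with Tomm40l on the opposite strand. The sources used here do not state whether the counting used strand, and Tomm40l, with a mean of 1376 counts to the 5748 of Nr1i3, had a log2 fold change of -0.49 (adjusted p = 0.0125).

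Of 22 CAR targets 5 rose and 1 fell, with a median log2 fold change of -0.17. The count called lower was 4 with the Xist set as a covariate, 2 with the replicate block, 3 without high-fat diet replicate 3 and 0 without control replicate 5. Within the libraries with Xist below 1000 counts 8 were called higher and 6 lower, and above 1000 counts 4 and 2. Gstm3, a glutathione transferase, rose from 18.8 to 57.5 CPM (median 28.2) to 53.6 to 409 CPM (median 267), and 11 of 12 high-fat diet libraries lay above every control (log2 fold change 2.84 ± 0.31, adjusted p = 4.78e-07). Gsta2 rose by 1.97 ± 0.33 and Gadd45b, a stress-response gene, by 1.55 ± 0.36 on the log2 scale. Cyp2c55 and Gstm1 also rose, the former being on the PXR list as well. Sult1a1, a sulfotransferase, fell by 0.95 on the log2 scale (adjusted p = 0.00456), a call lost without control replicate 5 and with library totals. Cyp2b10, the P450 most often used to read CAR activity, was at 0 to 22.1 CPM in control livers (median 1.42) and 0.731 to 23.1 CPM on the high-fat diet (median 3.17). Its log2 fold change of -0.15 ± 0.69 (adjusted p = 0.879) changed sign when 1 of control replicates 2, 3 or 5 was left out. Within the libraries with Xist below 1000 counts Cyp2b10 was called higher (log2 fold change 2.69 ± 0.63, adjusted p = 0.00402), and above 1000 counts the value was -0.47 ± 0.55 (adjusted p = 0.632), while the difference between the sets, 3.14 ± 0.93, did not pass (adjusted p = 0.0310).

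Ahr encodes the aryl hydrocarbon receptor, which binds dioxins and dietary and microbial indoles. Its level was 13.7, 31.5 and 43.7 CPM at the lowest, median and highest control library and 15.9, 24.2 and 31.2 CPM on the high-fat diet. All 12 high-fat diet libraries lay below the control median, but the lowest library of all was a control, replicate 10. For Ahr a log2 fold change of -0.33 ± 0.17 did not pass (95% interval -0.68 to 0.02, adjusted p = 0.131). Of 11 AhR targets tested 2 rose: Cyp1b1, a P450 found mainly outside hepatocytes (log2 fold change 1.73 ± 0.27, adjusted p = 2.55e-05), and Nqo1, a quinone reductase that is also a target of the NRF2 stress factor (0.76 ± 0.20, adjusted p = 0.00370). EdgeR called 0 lower, as did DESeq2 and limma-voom, with 1 lower at an unadjusted p under 0.05. Within the libraries with Xist below 1000 counts 2 were called higher and 1 lower, and above 1000 counts 0 and 0. Cyp1a1, the classical inducible target, was at most 0.691 CPM in control livers and 0.841 CPM on the high-fat diet (adjusted p = 0.419). Cyp1a2, its counterpart present in resting hepatocytes, had a median of 229 CPM in control livers and 157 CPM on the high-fat diet (log2 fold change -0.50 ± 0.19, adjusted p = 0.0381). Within the libraries with Xist below 1000 counts Cyp1a2 was called lower (-1.29, adjusted p = 5.2e-05), and above 1000 counts it was at 0.21 (adjusted p = 0.348).

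Nr3c1 encodes the glucocorticoid receptor (ENSMUSG00000024431), through which cortisol-like hormones raise gluconeogenesis and amino acid breakdown in liver. Its level was 52.1, 66.2 and 90.0 CPM at the lowest, median and highest control library and 32.1, 53.8 and 68.3 CPM on the high-fat diet. Of the high-fat diet libraries 11 of 12 lay below the control median and 6 lay below every control, again the 6 with little Xist. Its log2 fold change of -0.39 ± 0.11 met the adjusted p (0.00782) and not the fold threshold. With library totals it was -0.128 (adjusted p = 0.364). Within the libraries with Xist below 1000 counts the diets did not overlap, at 52.1 to 71.9 CPM and 32.1 to 49.4 CPM, and Nr3c1 was called lower there (log2 fold change -0.55 ± 0.11, adjusted p = 0.00131). Above 1000 counts the log2 fold change was -0.24 ± 0.10 (adjusted p = 0.103), and the difference between the sets did not pass (-0.31 ± 0.15, adjusted p = 0.189).

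Of 18 genes known as glucocorticoid receptor targets 5 fell and 2 rose, with a median log2 fold change of -0.48. Without high-fat diet replicate 3 the count called lower was 9, and it was 8 within the libraries with Xist below 1000 counts and 0 within those above. The members that fell make glucose or break down amino acids. Tat, tyrosine aminotransferase, fell from 423 to 2298 CPM (median 790) to 183 to 843 CPM (median 315), a change of -1.33 ± 0.27 on the log2 scale (adjusted p = 0.000471). G6pc, the last enzyme of glucose release, fell by 1.15 ± 0.26, with 11 of 12 high-fat diet libraries below every control (adjusted p = 0.00113). Pck1, which commits carbon to gluconeogenesis, fell by 1.12 ± 0.21, with 10 of 12 below every control (adjusted p = 0.000165). Sds and Tdo2, both amino acid enzymes, also fell, and the call of Tdo2 was lost in 12 of the 24 fits that left out 1 library. Tsc22d3 (GILZ), a target in most cell types, differed by -0.62 ± 0.19 on the log2 scale (adjusted p = 0.0113) and was called lower by DESeq2 (adjusted p = 0.00553) and, in edgeR, with the replicate block (0.000609), 1 surrogate variable (0.00112) or the Xist set as a covariate (0.00079). The members that rose were Lcn2, an acute-phase protein (3.11 ± 0.44, adjusted p = 8.84e-06), and Cdkn1a, a cell cycle inhibitor induced by p53 (2.18 ± 0.39, adjusted p = 9.21e-05). Hsd11b1, the enzyme that regenerates active glucocorticoid inside hepatocytes, fell from 441 to 651 CPM (median 539) to 90.6 to 428 CPM (median 261), with all 12 high-fat diet libraries below every control (log2 fold change -1.01 ± 0.19, adjusted p = 0.000155). Tat is also one of the 10 hepatocyte markers, of which 7 fell, and the part of hepatocyte RNA in these falls was not tested.

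The log2 fold changes of the thyroid hormone receptors had opposite signs, and neither receptor was called. Thra (ENSMUSG00000058756, chr11:98740638-98769006, plus strand), the form that prevails in heart and brain, was at 10.2, 13.0 and 17.3 CPM at the lowest, median and highest control library and at 12.2, 16.6 and 27.6 CPM on the high-fat diet. The highest value was that of high-fat diet replicate 9, and 11 of 12 high-fat diet libraries lay above the control median. For Thra a log2 fold change of 0.40 ± 0.11 met the adjusted p (0.00456) and not the fold threshold, and without the 2 libraries that stood apart it was 0.32 (adjusted p = 0.00663). Thra was called higher within the libraries with Xist below 1000 counts, where the diets did not overlap (11.8 to 15.4 CPM and 16.6 to 27.6 CPM, log2 fold change 0.55 ± 0.13, adjusted p = 0.00451). Above 1000 counts the diets overlapped, at 10.2 to 17.3 CPM and 12.2 to 16.6 CPM (log2 fold change 0.24 ± 0.13, adjusted p = 0.267), and the difference between the sets did not pass (0.31 ± 0.19, adjusted p = 0.342). The exons of Thra share 263 of 4614 bases with the clock gene Nr1d1 on the opposite strand. Nr1d1 had a mean of 2019 counts to the 295 of Thra and a log2 fold change of 0.06 (adjusted p = 0.749).

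Thrb (ENSMUSG00000021779, chr14:17660261-18038090, plus strand), the form that prevails in liver, was at 13.1, 30.5 and 42.9 CPM at the lowest, median and highest control library and at 10.8, 21.8 and 31.1 CPM on the high-fat diet. The lowest control was replicate 10 and the lowest high-fat diet library replicate 9, and 10 of 12 high-fat diet libraries lay below the control median. The log2 fold change of -0.44 ± 0.15 did not pass (adjusted p = 0.0245), and with library totals it was -0.187 (adjusted p = 0.350). Without control replicate 10 it was -0.51 (adjusted p = 0.00358), and Thrb was then called lower. Without both libraries that stood apart it was -0.45 (adjusted p = 0.00328), under the fold threshold. Per kilobase of exon the ratio of Thra to Thrb was 0.442, 0.703 and 1.68 at the lowest, median and highest control library and 0.736, 1.15 and 4.11 on the high-fat diet. Both highest values were those of the libraries that stood apart, and without them the highest were 1.07 and 1.87. The ratio was above 1 in 2 of 12 control libraries and in 9 of 12 high-fat diet libraries. Per kilobase of the longest transcript instead of all exons it was above 1 in 7 of 12 and 12 of 12, with medians of 1.11 and 1.82, so that its size relative to 1 rests on the length used.

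Of 14 thyroid hormone receptor targets 1 rose and edgeR called 0 lower, with a median log2 fold change of -0.34. DESeq2 and limma-voom also called 0 lower, and 6 were lower at an unadjusted p under 0.05. With the Xist set as a covariate edgeR called 2 lower, with the replicate block or 1 surrogate variable 1, and within the libraries with Xist below 1000 counts 5. DESeq2, library totals and some of the fits that left out 1 library (without high-fat diet replicate 1, 2, 4, 5 or 12 or control replicate 5 or 10) called 2 higher. The one that rose was Hr, the corepressor hairless, from 0.305 to 2.38 CPM (median 1.18) to 1.76 to 12.3 CPM (median 4.92), with 11 of 12 high-fat diet libraries above every control (log2 fold change 2.005 ± 0.29, adjusted p = 1.19e-05). Thrsp (Spot 14), a lipogenic target, had a median of 533 CPM in control livers and 279 CPM on the high-fat diet (log2 fold change -0.78 ± 0.27, adjusted p = 0.0239), and was called lower without high-fat diet replicate 4 or 5 (adjusted p = 0.00792 and 0.00912). Of 12 tested genes of hormone supply and ligand handling 1 rose and 2 fell, and 4 were called lower with the replicate block, 1 surrogate variable or the Xist set as a covariate. Dio3, which inactivates thyroid hormone, rose from a median of 0.140 to 0.591 CPM with a mean of 7.42 counts per library (log2 fold change 1.78 ± 0.46, adjusted p = 0.00315). Ttr, the thyroid hormone carrier of plasma and also a hepatocyte marker, fell by 0.62 ± 0.11 on the log2 scale, with 10 of 12 high-fat diet libraries below every control (adjusted p = 0.000126). With library totals the change of Ttr was -0.32 and was not called.

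Esrra (ENSMUSG00000024955, chr19:6910977-6921813, minus strand) was at 54.5, 66.1 and 117 CPM at the lowest, median and highest control library and at 43.8, 53.4 and 61.4 CPM on the high-fat diet. All 12 high-fat diet libraries lay below the control median and 7 lay below every control, while the highest value was that of control replicate 10. For Esrra a log2 fold change of -0.35 ± 0.10 met the adjusted p (0.00489) and not the fold threshold. With library totals it was -0.042 (adjusted p = 0.699). Without the 2 libraries that stood apart it was -0.26 (adjusted p = 0.00345). Of 18 genes tested with ERR-alpha as a known regulator, Esrra itself included, 3 fell and edgeR, DESeq2 and limma-voom each called 0 higher, with 0 higher also at an unadjusted p under 0.05. The median of the list was -0.37, and 16 of 18 were below 0. Ppargc1a, the coactivator PGC-1-alpha, fell from a median of 9.21 to 5.94 CPM (log2 fold change -0.80 ± 0.24, adjusted p = 0.00888), Lpin1, a phosphatidate phosphatase and coactivator, fell by 1.76 ± 0.51 (adjusted p = 0.00795), and Fh1, the fumarase of the Krebs cycle, fell by 0.60 ± 0.13 (adjusted p = 0.000840). The calls of Ppargc1a and Lpin1 were lost in 18 and 16 of the 24 fits that left out 1 library, and with library totals 0 genes of the list were called lower.

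Rxra (ENSMUSG00000015846, chr2:27676440-27762957, plus strand), the partner shared by PXR, CAR, the PPARs and the thyroid hormone receptors, was at 461, 698 and 805 CPM at the lowest, median and highest control library and at 444, 548 and 607 CPM on the high-fat diet. All 12 high-fat diet libraries lay below the control median, and 9 of 12 controls lay above every high-fat diet library. The log2 fold change of -0.28 ± 0.09 did not pass (adjusted p = 0.0129), and with library totals it was -0.0037 (adjusted p = 0.981). Of 33 other nuclear receptors tested 3 rose and 2 fell, with a median log2 fold change of -0.21. Rarg, a retinoic acid receptor, rose from 4.89 to 10.6 CPM (median 6.81) to 9.31 to 26.7 CPM (median 12.9), with 11 of 12 high-fat diet libraries above every control (log2 fold change 0.96 ± 0.14, adjusted p = 1.68e-05). Nr4a1, an immediate early receptor, rose by 0.89 ± 0.18 (adjusted p = 0.000330), and its relative Nr4a3 rose at a mean of 5.71 counts per library. Nr1d2 and Rora, receptors of the circadian clock, fell by 0.53 ± 0.12 and 0.52 ± 0.11 on the log2 scale, calls that were lost in 4 and 8 of the 24 fits that left out 1 library and, for both, with library totals (-0.27 and -0.25). Of 25 partners and coregulators 3 fell (Lpin1, Ppargc1a and the deacetylase Sirt1, the last by 0.57 ± 0.13 with an adjusted p of 0.000977) and 1 rose (Arnt2, a dimer partner of the bHLH-PAS factors, at a mean of 3.75 counts per library). With library totals 0 of the partners and coregulators were called lower, Sirt1 being at -0.29.

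**Figure D3:**
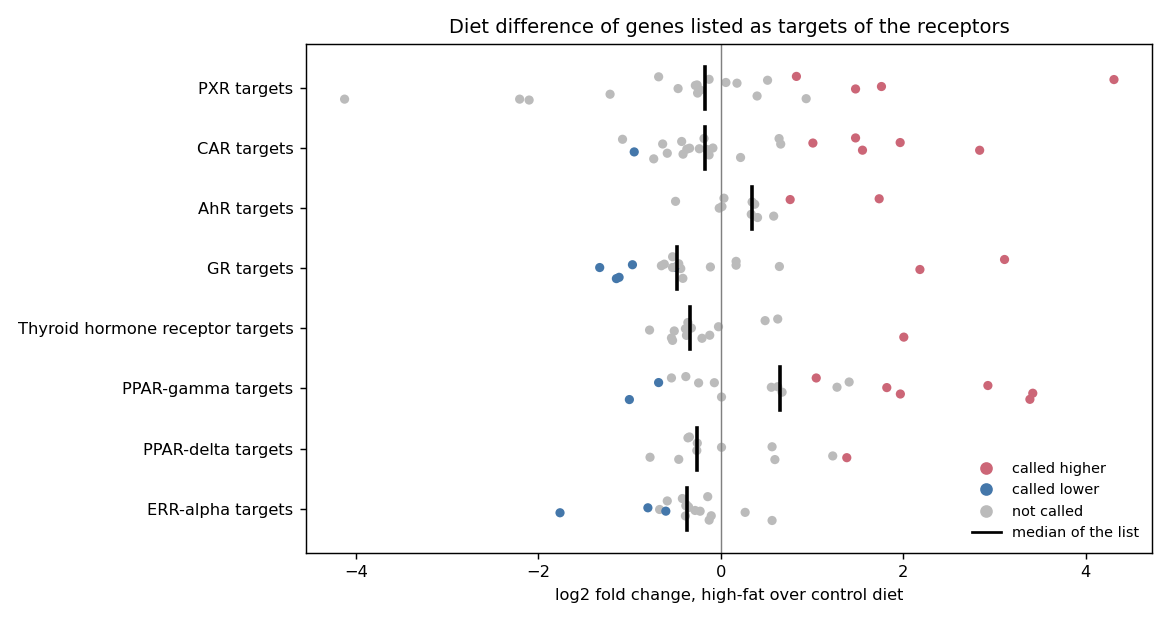
Log2 fold change, high-fat over control diet, of each tested gene of 8 lists of receptor targets, with red for genes called higher, blue for genes called lower, grey for genes not called, and a bar at the median of the list. The PPAR-gamma list has the highest median (0.65) and the glucocorticoid receptor (GR) list the lowest (-0.48).

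Levels were compared between the receptors per kilobase of exon. In control livers the order by the median was Rxra at 128 CPM per kilobase, Nr1i3 at 77.7, Nr1i2 at 36.4, Esrra at 15.1, Nr3c1 at 8.62, Ahr at 5.11, Thrb at 4.12, Thra at 2.81, Pparg at 2.47 and Ppard at 1.37. Only Nr1i2 and Esrra, and Esrra and Nr3c1, had ranges over the 12 libraries that did not overlap between neighbours in this order. On the high-fat diet the first 5 kept this order, and Pparg, at 5.89 CPM per kilobase (range 4.37 to 9.63), stood between Nr3c1 at 6.995 and Ahr at 3.92, although its range overlapped with both. Thra at 3.61 then stood before Thrb at 2.95, also with overlap, and Ppard at 1.57 was last. Per kilobase of the longest transcript Thra stood before Thrb on both diets (medians of 5.29 and 4.92 in control livers, 6.78 and 3.52 on the high-fat diet) and before Ahr on the high-fat diet. With that length the ranges of Nr1i2 and Esrra overlapped in control livers, Esrra was at a median of 26.6 CPM per kilobase there, and Ppard, at 2.77, was still last. The place of Nr1i3 rests on counts that may include reads of Tomm40l.

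**Figure D4:**
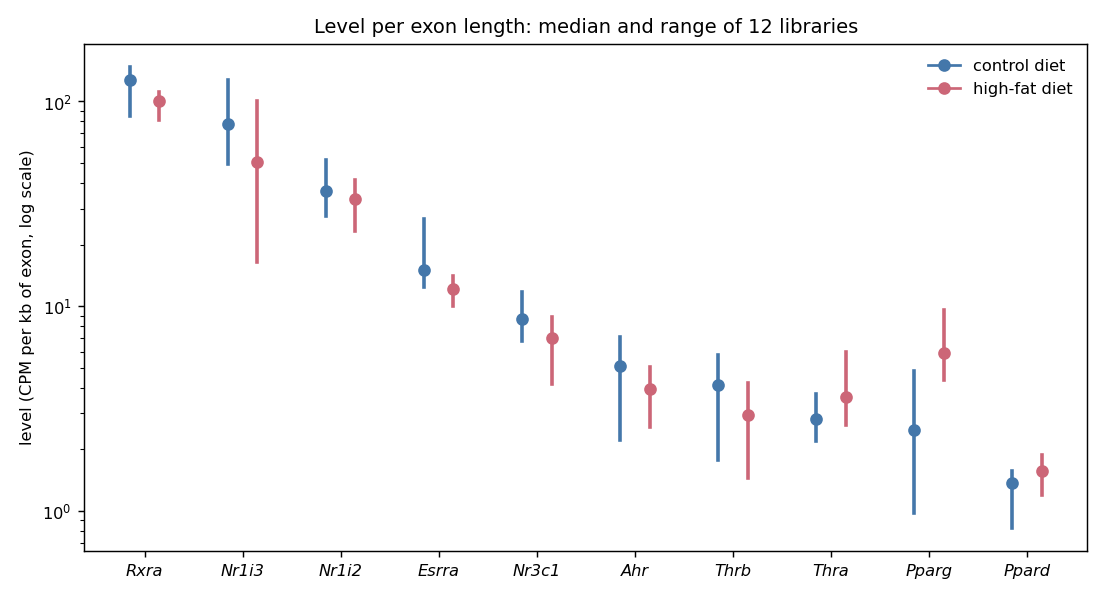
Level of each receptor in CPM per kilobase of exon (log axis), with a point at the median and a line over the range of the 12 libraries of each diet, ordered by the control median. Rxra is highest and Ppard lowest on both diets, and Pparg moves from 2.47 in control livers to 5.89 on the high-fat diet.

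The diet difference was also measured within each Xist set, with 6 libraries per diet. In the libraries below 1000 counts 22.3% of all genes were called, and 4 of the 10 receptors were: Pparg and Thra higher, Nr1i3 and Nr3c1 lower. In those above 1000 counts 3.78% of all genes were called, and 1 receptor was, Pparg (log2 fold change 0.94 ± 0.21, adjusted p = 0.00991). Pparg was at 4.05 to 13.8 CPM in the controls above 1000 counts and at 12.9 to 17.9 CPM on the high-fat diet, and below 1000 counts at 2.89 to 14.3 CPM and 16.9 to 28.4 CPM, where the diets did not overlap. In the latter set its log2 fold change was 1.63 ± 0.29 (adjusted p = 0.000519). After TMM scaling each receptor had the same sign in both sets. The test of the difference between the sets called 4.04% of all genes and 0 of the 10 receptors (edgeR), of which Nr1i3 and Nr3c1 had an unadjusted p under 0.05 (0.0226 and 0.0426). The summed level of the recruited macrophage markers on the high-fat diet was 130 to 191 CPM in the libraries above 1000 counts and 250 to 340 CPM in those below, and its part in these values was not tested.

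**Figure D5:**
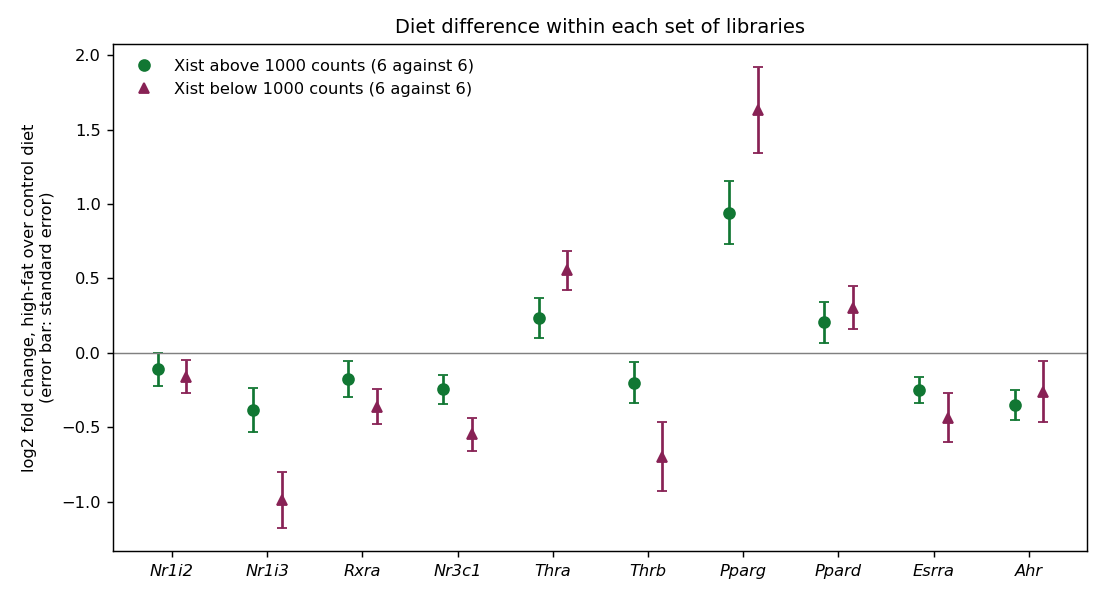
Log2 fold change of each receptor, high-fat over control diet, with its standard error, in the libraries with Xist above 1000 counts (green circles) and below (purple triangles), 6 against 6 each. The triangle lies farther from 0 than the circle for 9 receptors and nearer for Ahr, and no difference between the sets was called.

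Genes whose level varied most like that of each receptor were sought over the 24 libraries, after the mean of each diet and Xist set had been subtracted, among 11322 genes with at least 10 counts in every library. The correlations describe these libraries, which share depth and RNA quality between genes. Pparg was most like Stom (Pearson's r = 0.85), Aldh3a2 (0.84) and Trim5 (0.83), and Nr1i3 most like Glul (0.85), Tomm40l (0.84) and Cyp2e1 (0.84). Glul, glutamine synthetase, and Cyp2e1 are both known from hepatocytes around the central vein. Without the 2 libraries that stood apart, the r of Nr1i3 was 0.78 with Glul, 0.90 with Tomm40l and 0.79 with Cyp2e1. Rxra was most like Srrm2 (0.95) and Sidt2 (0.94), and Thrb most like Lrp6, Ube3a and A1cf (0.94, 0.94 and 0.93). The closest genes were Ppp2r2d for Nr1i2 (0.88), Ric1 for Nr3c1 (0.89), Ccdc61 for Thra (0.83), Gm2a for Ppard (0.84), Epb41l4aos for Esrra (0.92) and Ints6 for Ahr (0.90). Of these, the r of Esrra was the one that moved most without the 2 libraries, to 0.82.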

How the data were processed

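Whole-liver poly(A) RNA was sequenced, and the authors deposited raw integer counts for each Ensembl gene ID in 24 libraries. The submitters' processing notes name STAR 2.7.3a, bcl2fastq and mm10; the study's methods describe a stranded mRNA kit, the exon quantification pipeline and PISCES for alignment to a human reference, and the counting program, annotation and use of strand for the mouse libraries are not given in the sources used here. Symbols, exon lengths and overlaps came from GENCODE M21 (GRCm38), which matched 51745 of the 56205 gene IDs. The other IDs held 0.0723% of the counts.

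A gene was tested if 12 or more libraries had a count of 1 or more. The quasi-likelihood test of edgeR 4.0.16 (R 4.3.3) was used with TMM scaling, diet as the only term and Benjamini-Hochberg adjustment, after a check on simulated counts. Standard errors were derived from the F statistic. Alternatives were DESeq2 1.42.0, limma-voom (limma 3.58.1), sva 3.50.0, other scalings, filters and thresholds, a replicate block, the Xist set and each library left out. Leaving out high-fat diet replicate 9 and control replicate 10 together was added after seeing the data. No set test was run. No pair of libraries of a diet agreed within sampling noise (lowest chi-square per degree of freedom 9.47).

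The receptors, the lists of targets, partners and markers and the alternatives were chosen with earlier results of these data known. The text names all receptors, up to 3 called genes per list and direction with a mean of at least 10 counts, classical targets that were not called, and the genes most like each receptor. Other called genes were named after their values were seen, as were the classical targets that were not called and the genes that differed between the Xist sets. Promoter windows came from RefSeq (GRCm38.p6), with none at hand for Nr3c1, Thra and Ahr.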

Additional observations from a re-analysis of the deposited data

Results flagged for a closer look

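The diet difference was tested for a difference between the libraries with Xist below and above 1000 counts (edgeR's interaction test, adjusted p not above 0.01, log2 difference over 0.5 in size). It was called for 0 of the 10 receptors, 2 of which had an unadjusted p under 0.05, and for 19 of the 184 tested genes on the lists of targets, partners and hormone supply. The same test called 4.04% of all genes. The sets follow the sex read from Xist and Ddx3y, which no label gives. With library totals in place of TMM the calls of Hsd11b1 (adjusted p = 0.0166), Akr1d1 (0.0265), Ces2a (0.0415), Cyp2c37 (0.0111) and Upp2 (0.0193) were lost. Values below are the log2 fold change in the libraries below 1000 counts minus that in the libraries above.

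Of the CAR targets 7 of 22 were among them. For the P450 genes Cyp2c54 (-4.28), Cyp2c50 (-2.87), Cyp2c37 (-1.81) and Cyp2c29 (-1.45) the difference was negative. Cyp2c54 was at 69.2 to 154 CPM in control libraries with little Xist and 3.93 to 16.5 CPM on the high-fat diet, while in the other set it was at 19.1 to 59.2 CPM and 29.6 to 128 CPM. For Cyp2b9 (4.21), Gadd45b (2.60) and Gstm3 (1.84) it was positive. Cyp2b9 was at 0 to 2.36 CPM in the controls with little Xist and at 387 to 499 CPM in the others.

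Of the PXR targets 5 of 20 were among them. The difference was 4.63 for Cyp3a44 and 4.42 for Cyp3a41a, near-identical copies whose counts may be shared. Cyp3a41a was at 1326 to 4138 CPM in controls with high Xist and 168 to 995 CPM on the high-fat diet, and at 1.63 to 4.07 CPM and 9.996 to 20.3 CPM in the other set. It was 1.65 for Abcb1a, -1.11 for Ces2a and -2.18 for Ces2c.

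Cyp1a2, the AhR target, had a difference of -1.51: its log2 fold change was 0.21 in the libraries with high Xist and -1.29 in the others. Among genes of hormone supply, it was -0.97 for Hsd11b1, which fell in both sets, -1.10 for Akr1d1, a steroid reductase, and 1.96 for Serpina7, the thyroxine-binding globulin. It was -1.24 for Upp2, listed as a thyroid hormone receptor target, 0.90 for the glucocorticoid receptor target Sgk1 and 1.44 for the PPAR-delta target Ucp2.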

How the results depend on the processing

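Pparg was called higher under every alternative run, with a log2 fold change of 1.24 to 1.42 when 1 library was left out. Leaving out 1 library gave 2188 to 2468 genes higher and 700 to 995 lower, 1 to 1 receptors higher and 0 to 1 lower, the 1 being Thrb without control replicate 10. With library totals 3827 genes were higher and 226 lower, 3 receptors were higher, and the test of the difference between the Xist sets called 1318 genes against 724. Requiring 10 counts in every library left 1230 genes higher. An adjusted p of at most 0.05 with no fold threshold gave 3709 genes higher and 3388 lower, with 3 receptors higher and 4 lower. A log2 fold change over 1 left 216 genes lower. In the libraries with high Xist 520 genes were higher and 158 lower, and in those with low Xist 1431 were lower, with 2 receptors higher and 2 lower. The replicate block, 1 surrogate variable and the Xist set as a covariate each called 1 receptor lower, Nr1i3, at a log2 fold change of -0.74, -0.69 and -0.70. Deviations of libraries of the same replicate number had correlations of -0.083 to 0.302, above 0 for 11 of 12 numbers and above 0.1 for 9, and 0 of 12 numbers matched best with each other. Only the mean of each diet was subtracted, and libraries of the same number fall in the same Xist set, so these correlations cannot decide whether libraries were paired. Same-numbered libraries were treated as unpaired. The replicate block also takes up the difference between the Xist sets.

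Signs turned with library totals for Nr1i2 (0.126) and for the difference between the Xist sets of Nr1i2 (0.274), Rxra (0.145), Nr3c1 (0.019) and Esrra (0.195), and within the high-Xist libraries for Cyp1a2 (0.213). Cyp2b10 turned under limma-voom (1.168), library totals (0.032), the replicate block (0.705), 1 surrogate variable (0.940), the Xist covariate (0.643) and low Xist (2.692, called higher there), and without control replicates 2, 3 or 5 (0.071, 0.023 and 0.352, within a range of -0.794 to 0.352 over all single libraries left out). The cause was not tested. The replicate block ended the calls of Arnt2, Gadd45b, Lpin1 and Tdo2. Counting error limits Nr4a3, Dio3, Arnt2 and Aqp7, at means of 15 counts or fewer.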
